A study of Mus musculus with 47 samples.

Results

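The regions described here are the binding peaks of thymine DNA glycosylase (TDG) in mouse embryonic stem cells (ESCs) that coincide with a binding peak of the tumour suppressor p53. They were chosen from 2 deposited lists of chromatin immunoprecipitation (ChIP) peaks, given in build mm9: every 400 bp interval of the TDG list that overlapped an interval of the p53 list by at least 1 bp is a member. Of 673 TDG peaks 580 met this rule, which is 86.2% of the TDG list. The 580 p53 peaks they overlapped were 11.8% of the 4897 p53 peaks. The study asked what part TDG plays in p53 activity over the cell cycle. Its 47 samples cover ChIP, immunoprecipitated 5-carboxylcytosine DNA, RNA and open chromatin. The lists are named for their antigens, for which the series holds 2 TDG ChIP samples and 2 p53 ChIP samples of E14Tg2A, a mouse ESC line, grown without serum in N2B27 medium with LIF and inhibitors of MEK (PD0325901) and of GSK3 (CHIR99021). The labels name no knock-down, genotype or other treatment for these 4 samples. RNA levels given at the end come from 8 libraries of the same line with a control siRNA (siC), 2 each at 48 h, at 96 h, and sorted in G1 and in G2M. TDG was pulled down with a polyclonal antibody and p53 with the CM5 antibody. Each antigen has 1 list, which is not tied to a replicate or to named samples, so no value of a member can be given per replicate. p53 was also precipitated from cells sorted in G1 and in SG2M, and whether those samples entered the p53 list is not stated. The lists hold positions alone, with no peak height, enrichment or q-value, and the ChIP depth is unknown.

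TDG is a DNA repair enzyme. It cuts thymine and uracil out of mismatches with guanine, and it also removes 5-formylcytosine and 5-carboxylcytosine, the bases that TET dioxygenases make by oxidising 5-methylcytosine. Base excision repair then restores an unmodified cytosine, so TDG takes part in active DNA demethylation. TDG has been found with transcription coactivators at promoters and enhancers of ESCs. The transcription factor p53 binds DNA as a tetramer at response elements made of a pair of decameric half-sites. It controls genes of growth arrest, DNA repair and apoptosis, and in ESCs it also promotes differentiation.

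Each of the 580 members overlapped exactly 1 p53 peak, and each of those p53 peaks was overlapped by 1 TDG peak. The spacing of the lists fixed this in advance. Centres lay at least 992 bp apart in the p53 list and 1092 bp apart in the TDG list. A 400 bp interval therefore could not overlap 2 intervals of the other list. Overlap lengths ran from 47 bp to the full 400 bp. The median overlap was 376 bp, or 94.0% of the interval, with quartiles of 357.75 and 390 bp. Most members therefore covered nearly the whole interval of their p53 partner. Every interval has the same width of 400 bp, so the overlap length restates the centre distance given below. It does not measure the extent of binding. All of these values come from the lists that the rule used and are given as a description, without a test.

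**Figure D1:**
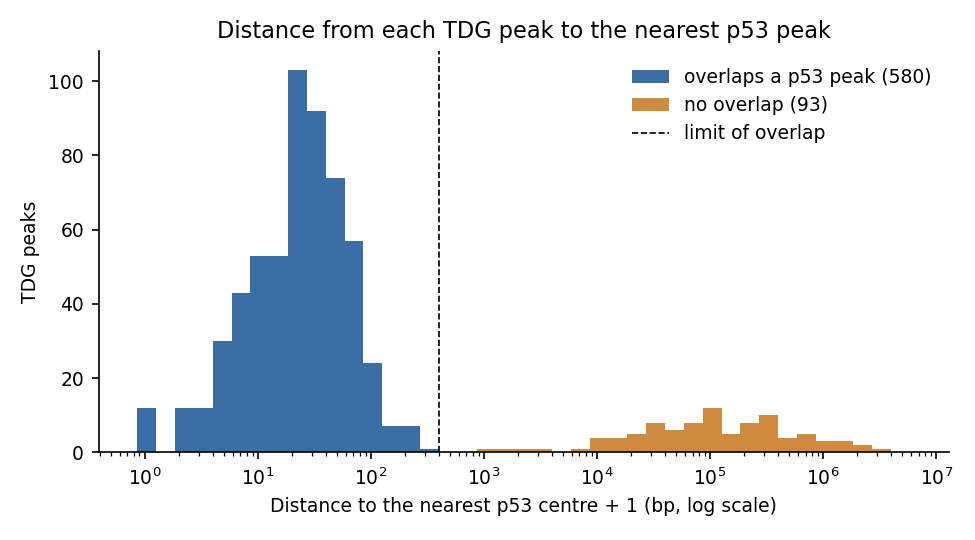
Histogram of the distance from the centre of each of the 673 TDG peaks to the nearest p53 centre on its chromosome, in bp on a log scale after adding 1. Blue bars are the 580 members, orange bars the 93 TDG peaks without p53, and the dashed line is the limit of overlap; the farthest member lies at 353 bp and the nearest other TDG peak at 1025 bp.

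The distance to the nearest p53 centre split the TDG list into groups with an empty stretch between them. The member farthest from its p53 centre was the peak at chr7:127004665-127005064, at 353 bp and with 47 bp of overlap. The next was at chr7:52230006-52230405, at 253 bp with 147 bp of overlap. On the other side of the limit the closest TDG peak was at chr4:11082081-11082480, whose centre lay 1025 bp from that of the p53 peak at chr4:11083106-11083505, with 625 bp between the intervals. That p53 peak was itself the partner of a member, whose TDG centre lay 1092 bp from that of the chromosome 4 TDG peak. The TDG peak at chr6:136419363-136419762 followed, with a centre distance of 1819 bp. Between 353 and 1025 bp no TDG peak was found, so the plot of distances has a gap at the limit.

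Most of the 93 TDG peaks without p53 had no p53 centre within 10 kb. Their median distance to the nearest p53 centre was 107 kb and the longest was 3.83 Mb. Only 4 of the 93 had a p53 centre within 5 kb, 5 within 10 kb, 44 within 100 kb and 87 within 1000 kb. For scale, a p53 peak without TDG had its nearest other p53 peak, on either side, at a median of 109 kb, which is a similar distance.

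Within the members the centres of the TDG and p53 intervals nearly coincided. The distance between them had a median of 24 bp and quartiles of 10 and 42.25 bp, with a mean of 33.8 ± 37.4 bp (SD over 580 peaks). Centres lay within 10 bp of each other in 152 members (26.2%), within 25 bp in 306 (52.8%) and within 50 bp in 464 (80%). A distance over 100 bp was found in 25 members, and in 7 of these it was over 200 bp. The members thus form a narrow core with a thin tail.

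**Figure D2:**
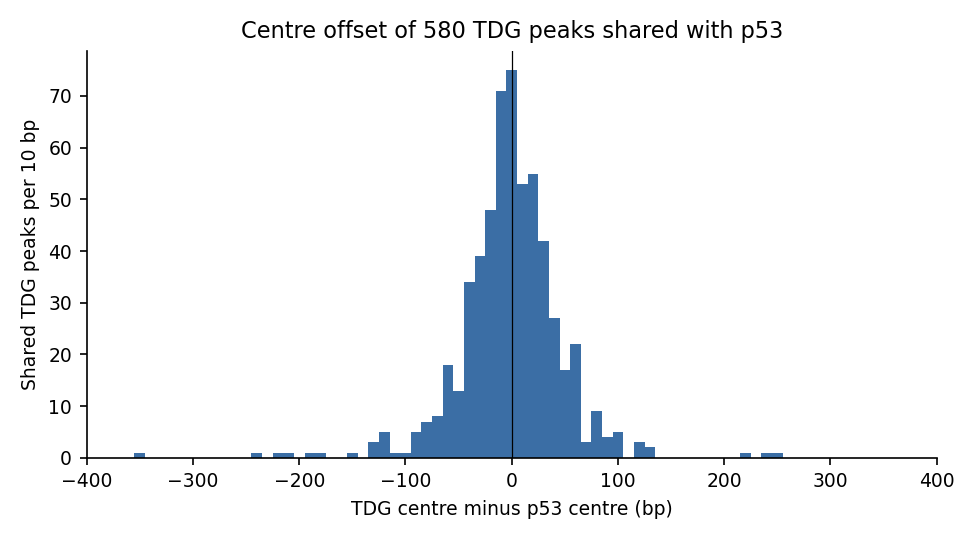
Histogram of the TDG centre minus the p53 centre in bp, in bins of 10 bp, for the 580 members. The offsets pile up around 0 with a median of -1 bp, and 464 members lie within 50 bp.

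The offset had no clear side along the chromosome. The TDG centre stood at the higher coordinate in 271 members and at the lower in 297, and the interval was the same in 12. The mean offset, TDG minus p53, was -2.19 bp with an SD of 50.4 bp. Coordinates carry no strand here, so this says nothing about the direction of a gene or of a p53 response element.

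The 12 members at an offset of 0 have the same start and end in both lists. The first 10 in chromosome order are shown because they mark the places where both antigens were assigned the same centre. Chromosome 1 holds chr1:25185588-25185987 and chromosome 3 holds chr3:157566108-157566507. On chromosome 4 there are 3, namely chr4:133456040-133456439, chr4:138749020-138749419 and chr4:155071021-155071420. Single ones lie at chr8:126616571-126616970, chr9:37193127-37193526 and chr10:42194748-42195147. On chromosome 14 there are chr14:25130412-25130811 and chr14:35192234-35192633. In the other 568 members the TDG and p53 intervals start at different bases.

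Members were found on all 20 chromosomes in the lists, the 19 autosomes and X. Chromosome 2 held the most, with 51 members among 58 TDG peaks, followed by chromosome 1 with 46 of 52 and chromosomes 6 and 8 with 43 each. The share of TDG peaks with p53 was at least 80% on 18 of the 19 autosomes. It was highest on chromosome 10, where 36 of 37 TDG peaks were members (97.3%), and lowest among autosomes on chromosome 19, with 15 of 20 (75%). Chromosome 6 held the most TDG peaks without p53, 10 of 53.

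**Figure D3:**
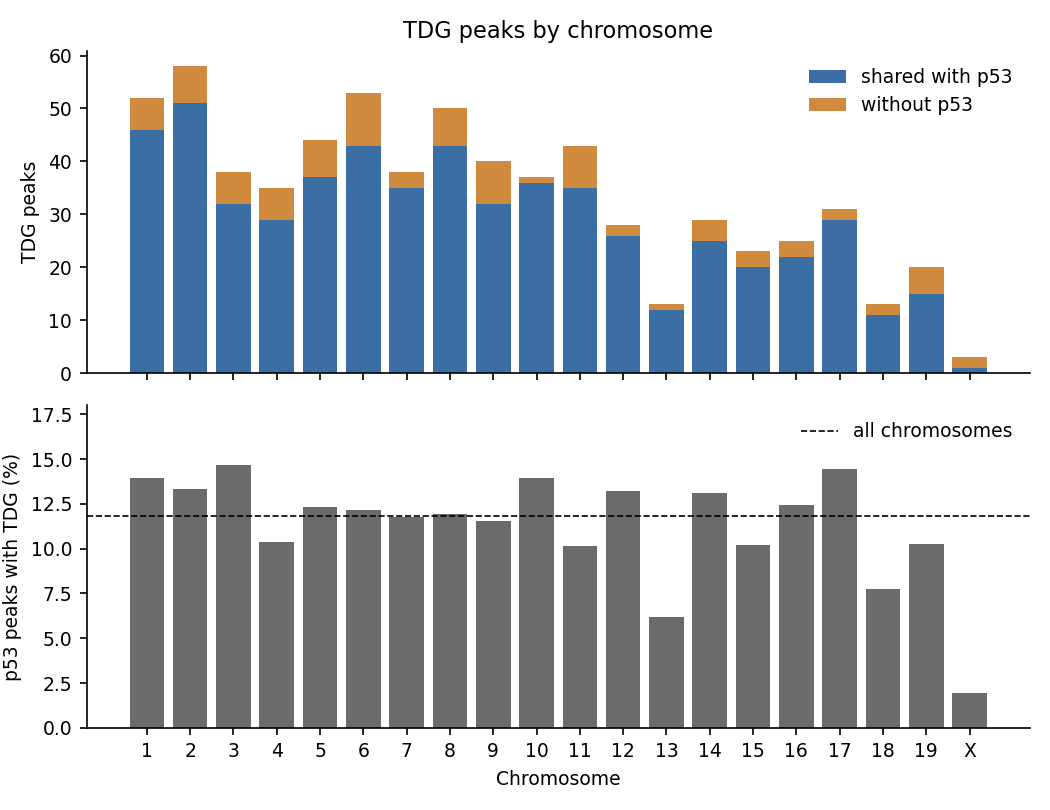
Upper bars count TDG peaks per chromosome, members in blue and TDG peaks without p53 in orange; lower bars give the percent of p53 peaks that overlap a TDG peak. The dashed line is the 11.8% of the whole p53 list, and chromosomes 13, 18 and X stand lowest at 6.19%, 7.75% and 1.92%.

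The share of p53 peaks that TDG also occupied likewise varied between chromosomes. Its median over the autosomes was 12.1%. Chromosome 3 had the highest share, 32 of 218 p53 peaks (14.7%), with chromosome 17 close behind at 29 of 201 (14.4%). Chromosome 13 had the lowest among the autosomes, 12 of 194 (6.19%), and chromosome 18 the second lowest, 11 of 142 (7.75%). On chromosome X a single one of 52 p53 peaks was a member (1.92%), against 579 of 4845 on the autosomes (12.0%). Chromosome X also had few peaks of either list, 3 TDG peaks, 1 of them a member (33.3%), and 52 p53 peaks. On chromosome 13 the TDG list was short as well: 13 peaks, 1.93% of that list, against 3.96% of the p53 list. Of these 13 TDG peaks 12 were members.

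Alignment of the centres varied somewhat from chromosome to chromosome. The median centre distance of the members ranged over the autosomes from 11 bp on chromosome 15 (20 members) to 38 bp on chromosome 7 (35 members). Chromosomes 8 and 6 had medians of 35 and 34 bp, and chromosome 1 of 17 bp. All of these medians are small beside the 400 bp width of an interval.

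Of the 580 members 61 (10.5%) had another member within 100 kb. The nearest other member, on either side, lay at a median of 974 kb, with quartiles of 370 kb and 3046 kb, and 292 of the 580 (50.3%) had another within 1000 kb. When chromosomes were divided into windows of 1 Mb, 485 windows held a member, 405 of them a single one, 66 held 2 and 13 held 3. A single window held 4, between 111 and 112 Mb on chromosome 12, beside 8 p53 peaks in all.

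A few members stood in close pairs. In 8 cases another member lay within 10 kb, and in 13 within 15 kb, and no further p53 peak lay between the partners of any of these 13 pairs. The closest pair was on chromosome 16, chr16:93572329-93572728 and chr16:93575042-93575441, with centres 2713 bp apart. Next came chr2:26408736-26409135 with chr2:26411747-26412146, 3011 bp apart, and chr3:104258118-104258517 with chr3:104261228-104261627, 3110 bp apart. A pair on chromosome 12, chr12:85889614-85890013 and chr12:85893608-85894007, was 3994 bp apart. Among the wider pairs were chr10:117146902-117147301 with chr10:117154614-117155013, at 7712 bp, and chr17:29215817-29216216 with chr17:29227732-29228131, at 11915 bp. In these 6 pairs each TDG centre lay within 37 bp of its own p53 centre. Among the rest of the 13, only the pair 6254 bp apart on chromosome 1 met this limit, with offsets of 16 and 13 bp. Every other pair had an offset beyond it, up to 130 bp in a pair 6762 bp apart on chromosome 8. The 6 pairs were picked after the values were seen, and closer pairs at 5825, 6254 and 6762 bp are not printed.

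p53 peaks that carried TDG had a close p53 neighbour somewhat more often than those that did not. Another p53 centre lay within 5 kb of 33 of the 580 members' p53 peaks (5.69%), against 145 of the 4317 p53 peaks without TDG (3.36%). Within 10 kb the counts were 70 (12.1%) and 336 (7.78%), and within 50 kb they were 197 (34.0%) and 1279 (29.6%). At 100 kb the shares came together, at 48.8% and 47.1%, and the medians were 104 kb and 109 kb. Beyond that the order turned: the upper quartile was 284 kb with TDG and 254 kb without, and within 1000 kb the shares were 95.9% and 96.2%. Regions are not replicates of a condition, so these shares are a description with no test.

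**Figure D4:**
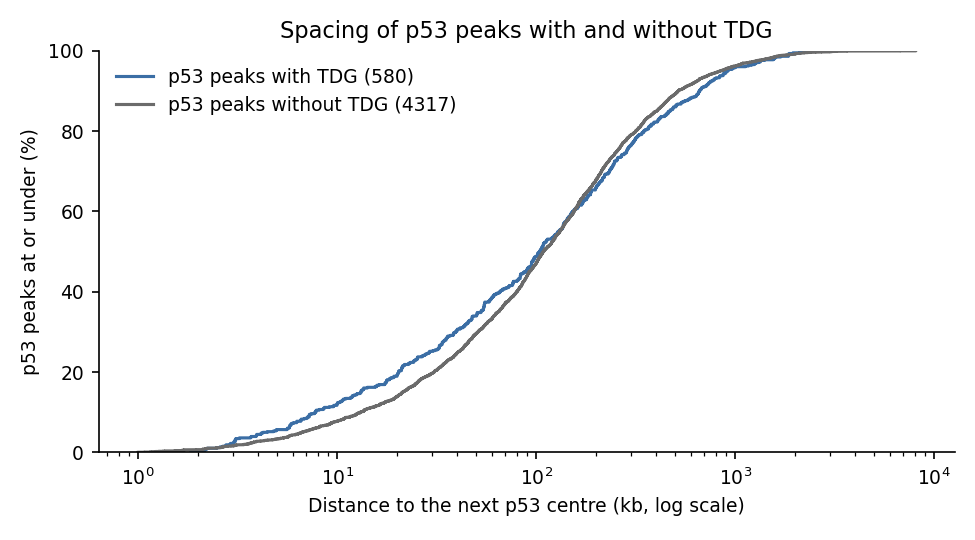
Cumulative percent of p53 peaks whose nearest other p53 centre, on either side, lies at or under the distance on the x axis, in kb on a log scale, for the 580 with TDG (blue) and the 4317 without (grey). The blue line runs above the grey one at 10 kb, 12.1% against 7.78%, and the lines meet near the medians of 104 and 109 kb.

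Close p53 neighbours of members were partly members themselves. Of 207 pairs of adjacent p53 peaks with centres up to 10 kb apart, 62 had a member. In 53 of the 207 one peak of the pair was a member and the other was not, and in 9 both were, which are the 8 close pairs above and a pair on chromosome 11 whose TDG centres are 10069 bp apart. In the remaining 145 neither was. Counted from the members, 18 of 71 such neighbours were members (25.4%), beside 11.8% of the whole p53 list. The whole list is an unlike baseline, since each of these neighbours has a p53 peak within 10 kb. Among all p53 peaks with another within 10 kb, 70 were members and 336 were not, a higher share than in the whole list. Among pairs over 200 kb apart 39 of 2648 held 2 members (1.47%), against 9 of 207 (4.35%) for the close pairs. Between these limits the share was 2.12% from 10 to 50 kb (13 of 612) and 0.99% from 50 to 200 kb (14 of 1410). It thus did not fall steadily with distance.

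RNA of both antigens was present in the same cell line. RPKM, a read count scaled by gene length and library size, was read in the 8 siC libraries. These siRNA-treated cultures are not the ChIP samples. Tdg stood at 46.0 and 43.4 RPKM at 48 h, at 35.8 and 46.0 at 96 h, at 54.8 and 59.6 in G1 and at 61.6 and 63.1 in G2M. Trp53, the gene of p53, stood at 187 and 154 RPKM at 48 h, at 187 and 129 at 96 h, at 175 and 176 in G1 and at 187 and 183 in G2M. RPKM was scaled separately in each deposited table, so levels at 48 h, at 96 h and in sorted cells are on unlike scales. In every one of the 8 libraries the RPKM of Trp53 was above that of Tdg.

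**Figure D5:**
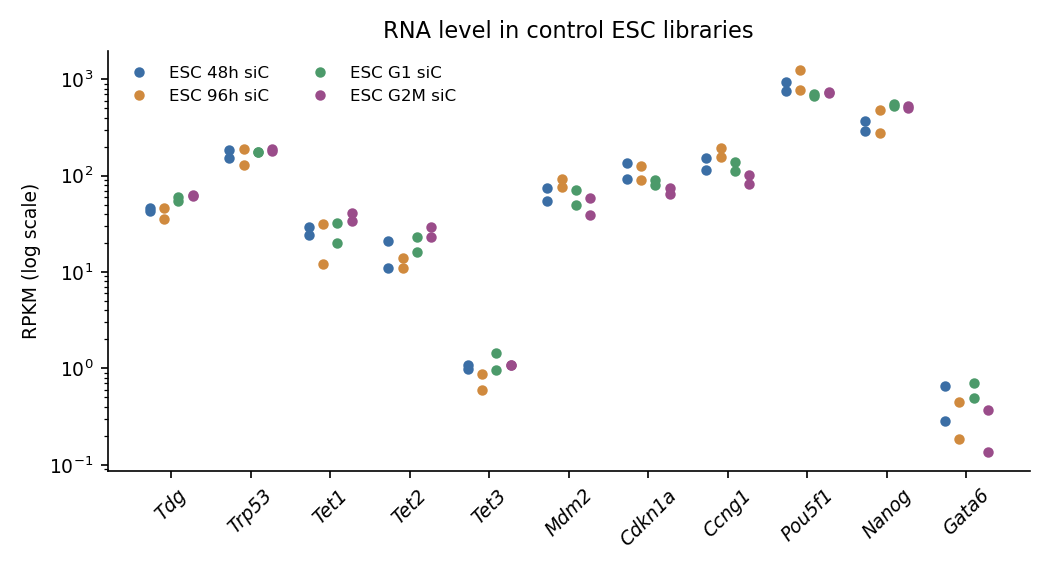
RNA level in RPKM on a log scale in 8 control ESC libraries, 2 per group, with 1 point per library. Tdg lies between 35.8 and 63.1 RPKM and Trp53 between 129 and 187, Tet3 stays at 1.45 or lower, and Gata6, an endoderm regulator, stays under 1. Gata6 is the only marker of other cell types drawn, and some that are not drawn were higher, with Eomes at up to 9.74 RPKM.

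Among the enzymes that make the substrate of TDG, Tet1 stood at 32.2 and 19.9 RPKM in G1 and at 40.7 and 33.5 in G2M. In unsorted cells Tet1 stood at 29.1 and 24.2 RPKM at 48 h and at 31.8 and 12.0 at 96 h. Tet2 stood at 22.9 and 16.1 RPKM in G1 and at 29.5 and 23.1 in G2M, and Tet3 did not exceed 1.45 in any of the 8 libraries. Among the 23735 genes listed for all 8 libraries, 9846 (41.5%) had at least 1 RPKM in every library, which is the background for the counts that follow. Of 26 genes of cytosine methylation, oxidation and base excision repair 25 had at least 1 RPKM in all 8 libraries, Tet3 being the exception. They include Apex1, the endonuclease that acts after TDG, at 119 to 226 RPKM. Of 67 matched p53 target genes 56 had at least 1 RPKM in all 8 libraries, 6 in some and 5 in none. The 5 were Casp1, Dram1, Fas, Mir34a and Sco2. Mdm2, the ubiquitin ligase that targets p53, ranged from 39.0 to 92.5 RPKM, Cdkn1a, a cyclin-dependent kinase inhibitor, from 64.9 to 134 and Ccng1, cyclin G1, from 82.3 to 194. The ESC label held by its markers: all 26 pluripotency genes had at least 1 RPKM in every library, with Pou5f1 at 673 to 1253 and Nanog at 274 to 557. Of 13 markers of endoderm, mesoderm and neural cells 8 were under 1 RPKM in every library. Eomes, at 2.44 to 9.74 RPKM, and Nes, at 1.36 to 4.54, were at 1 RPKM or more in all. Gata4, T and Sox1 passed 1 RPKM in some libraries only, and reached 2.01, 3.57 and 2.73 RPKM. Their summed level lay between 8.18 and 21.0 RPKM, against 4255 to 7353 for the pluripotency genes. These sums cover 13 and 26 genes, and Dppa5a alone stood at 1363 to 3958 RPKM. Both ranges span libraries on unlike scales. Which of these genes lie next to a member was not analysed here, since gene positions in mm9 were not used.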

How the data were processed

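Peak lists of TDG and of p53 were deposited by the authors as positions in bp, 1 list per antigen, with no other column. The submitters' processing notes name Bowtie, DiffBind, TopHat, DESeq2 and build mm9. No source used here names the peak caller, its threshold or which samples entered each list. All intervals are 400 bp wide. Printed coordinates count from 1. Overlaps, centre distances and spacing were computed with Python 3.11.15 and pandas 2.3.3, the count of members was checked with bedtools 2.31.1, and the functions were tested on simulated data. Gene levels are RPKM as deposited by the authors, scaled separately in each table, and were read without a test. The 4 columns of the 0 h table fit no sample label and were left out.

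The planned rule for named genes, the p53 motif search and the comparison of expression near members need positions of mm9. The reference tables given are of GRCm38.p6, and 6 of 20 chromosomes of the p53 list reach beyond the last gene there, so none was used for positions. No limma fit was therefore run. The TDG ChIP of shTdg cells and the input, 1 sample each, were not analysed here. Of 69 p53 target symbols 67 were matched in all tables. The members and gene lists were chosen with earlier results of these data known.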

Additional observations from a re-analysis of the deposited data

How the results depend on the processing

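With an overlap of at least 200 bp there were 573 shared peaks, with centres at most 100 bp apart 555, and with intervals up to 1000 bp apart 581, against 580 by the rule. The share of the TDG list was 85.1%, 82.5% and 86.3% in the same order, and the median centre distance 24, 23 and 24 bp. Of the members 25 have centres over 100 bp apart. The share of members whose p53 peak has another within 10 kb stayed between 12.0% and 12.3%. No paired analysis was possible because each antigen has 1 list, not tied to replicates, and no result comes from a test. For the same reason no replicate could be left out. Other settings for distance to gene starts, the p53 motif and expression near members were not run, as they need positions or sequence of mm9. ChIP depth is unknown, so a TDG peak missing from the list may be one not detectable at that depth.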

Other observations

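Lines of both lists follow the coordinate within each chromosome, apart from a few that stand ahead of it. In the p53 list 15 lines stand ahead, on 9 chromosomes. In the TDG list there are 2, chr7:97517500-97517899 and chr8:25690064-25690463. Both are members, and their p53 partners, chr7:97517533-97517932 and chr8:25690022-25690421, are among the 15 displaced lines of the p53 list. The offsets of these members, -33 and 42 bp, lie within the range of the others. What set these lines apart in the deposited order is not stated in the labels.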
